A study of Mus musculus with 12 samples.

Results

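A set of 10 T cell costimulation and coinhibition genes was followed in bulk RNA sequencing of mouse ileum and synovium. They were 5 receptors (Cd28, Pdcd1, Havcr2, Lag3 and Tigit) and 5 ligands (Cd80, Cd86, Cd274, Pdcd1lg2 and Lgals9), named by symbol and matched to 10 of the 46603 Ensembl identifiers of the count table. The 4 groups were ileum of TNFdARE mice, ileum of WT littermates, synovium of TNFdARE mice and synovium of WT littermates, with 3 biological replicates each. In TNFdARE mice the Tnf gene has lost its AU-rich element, which normally keeps the transcript short-lived and poorly translated; inflammation of the ileum and of the joints is the known phenotype of this model. The labels give neither the zygosity of the allele nor the age or sex of the mice, name no treatment, and leave unsaid whether an animal gave both tissues.

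A T cell that recognises antigen needs a costimulatory signal to be fully activated, and Cd28 on the T cell delivers it when it binds Cd80 or Cd86 on an antigen-presenting cell. Inhibitory receptors limit the response: PD-1, encoded by Pdcd1, binds PD-L1 (Cd274) and PD-L2 (Pdcd1lg2), Lag3 binds MHC class II, and Tigit binds Pvr. TIM-3, encoded by Havcr2, is carried by activated T cells and also by macrophages and dendritic cells, and galectin-9 (Lgals9) is among its described ligands. Galectin-9 is also made by epithelial cells.

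Library totals lay between 14267834 and 16224402 counts. CPM are counts scaled to a library total of 1000000 with TMM factors over all 12 libraries, and 1 count was worth 0.0616 to 0.0701 CPM before those factors. Tnf, whose regulatory element is deleted, had 17.2 to 82.8 CPM in TNFdARE ileum and 1.39 to 2.63 CPM in WT ileum, and 28.3 to 38.4 CPM in TNFdARE synovium and 1.89 to 2.15 CPM in WT synovium. The tissue labels were checked on marker genes: 5 epithelial markers summed to 8642 to 12863 CPM in ileum libraries and 9.44 to 24.8 CPM in synovium libraries. Synovium libraries also held skeletal muscle RNA, with a summed level over 6 markers of 979 to 3930 CPM in TNFdARE against 6349 to 11197 CPM in WT. TNFdARE replicate 2 of the ileum stood apart from its group and was the lowest of the 3 TNFdARE libraries for 10 of 10 genes. In bulk tissue, fewer cells of a type and less RNA per cell cannot be told apart.

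On GRCm38, Cd28 and Pdcd1 lie on chromosome 1 (60716800 to 60773359, plus strand, and 94038305 to 94052553, minus strand). Cd80 (38455561 to 38496335, plus), Cd86 (36603869 to 36666081, minus) and Tigit (43648867 to 43664146, minus) lie on chromosome 16. Havcr2 (46454935 to 46481255, plus) and Lgals9 (78962974 to 78984946, minus) lie on chromosome 11, and Lag3 (124904361 to 124911705, minus) on chromosome 6. The PD-1 ligand genes are neighbours on chromosome 19, Cd274 at 29367455 to 29388095 and Pdcd1lg2 at 29410919 to 29471161, both on the plus strand and 22.8 kb apart. Cd274 shares 511 exon bases with an antisense gene, and the strand setting of the counting is not given in the sources used here, so reads of that pair cannot be told apart where they overlap.

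RefSeq promoters (GRCm38.p6, 250 bases before to 50 after the start) were matched for 7 genes. Those of the neighbouring PD-1 ligands, of Lgals9, of Cd80 (the largest increase in ileum) and of Havcr2 (the largest in synovium) are shown 5′ to 3′ in the direction of the gene. Capitals mark matches to 1 of 3 motifs searched on both strands: the kappaB consensus, the GAS motif TTCNNNGAA and an ISRE-like motif, GAAANNGAAA.
Cd274, chr19:29367188-29367487, plus strand: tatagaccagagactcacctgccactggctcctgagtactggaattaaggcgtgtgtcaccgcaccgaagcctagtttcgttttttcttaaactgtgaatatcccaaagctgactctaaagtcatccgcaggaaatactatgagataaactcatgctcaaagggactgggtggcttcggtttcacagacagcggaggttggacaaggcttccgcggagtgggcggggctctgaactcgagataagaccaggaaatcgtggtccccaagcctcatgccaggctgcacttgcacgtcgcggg
Pdcd1lg2, chr19:29410669-29410968, plus strand: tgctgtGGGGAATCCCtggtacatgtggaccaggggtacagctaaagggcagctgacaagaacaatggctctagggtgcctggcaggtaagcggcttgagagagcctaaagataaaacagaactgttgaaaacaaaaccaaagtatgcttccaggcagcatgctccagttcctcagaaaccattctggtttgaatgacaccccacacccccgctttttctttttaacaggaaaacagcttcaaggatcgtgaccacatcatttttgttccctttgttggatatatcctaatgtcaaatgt
Lgals9, chr11:78984875-78985174, minus strand: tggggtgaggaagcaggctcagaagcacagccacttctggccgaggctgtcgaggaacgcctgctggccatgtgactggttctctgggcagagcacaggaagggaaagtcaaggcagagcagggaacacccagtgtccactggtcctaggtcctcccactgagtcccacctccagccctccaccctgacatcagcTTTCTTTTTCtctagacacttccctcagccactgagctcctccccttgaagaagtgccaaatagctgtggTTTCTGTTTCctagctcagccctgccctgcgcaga
Cd80, chr16:38458683-38458982, plus strand: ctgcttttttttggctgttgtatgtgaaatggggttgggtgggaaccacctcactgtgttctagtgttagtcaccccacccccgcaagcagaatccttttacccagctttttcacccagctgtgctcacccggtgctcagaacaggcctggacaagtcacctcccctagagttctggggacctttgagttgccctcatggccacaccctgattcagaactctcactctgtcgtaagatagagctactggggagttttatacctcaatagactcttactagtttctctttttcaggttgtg
Havcr2, chr11:46454681-46454980, plus strand: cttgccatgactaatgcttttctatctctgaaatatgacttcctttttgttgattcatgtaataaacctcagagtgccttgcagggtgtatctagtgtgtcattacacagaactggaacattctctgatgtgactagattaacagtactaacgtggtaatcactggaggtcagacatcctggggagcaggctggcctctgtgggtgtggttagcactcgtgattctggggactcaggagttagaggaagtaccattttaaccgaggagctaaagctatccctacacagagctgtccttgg
Pdcd1lg2 held a kappaB match at positions -244 to -235 from the start that fits the consensus on both strands. Lgals9 held 2 ISRE-like matches on the reverse strand, at -55 to -46 and at 16 to 25. The Cd80 window starts inside the gene span given above, since RefSeq places the start of its transcript there. None of the 3 motifs was found in the windows of Cd274, Cd80, Havcr2, Pdcd1 or Tigit. Over all 32851 promoters of the table, 8.5% held the kappaB consensus, 8.3% GAS and 3.4% the ISRE-like motif.

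**Figure D1:**
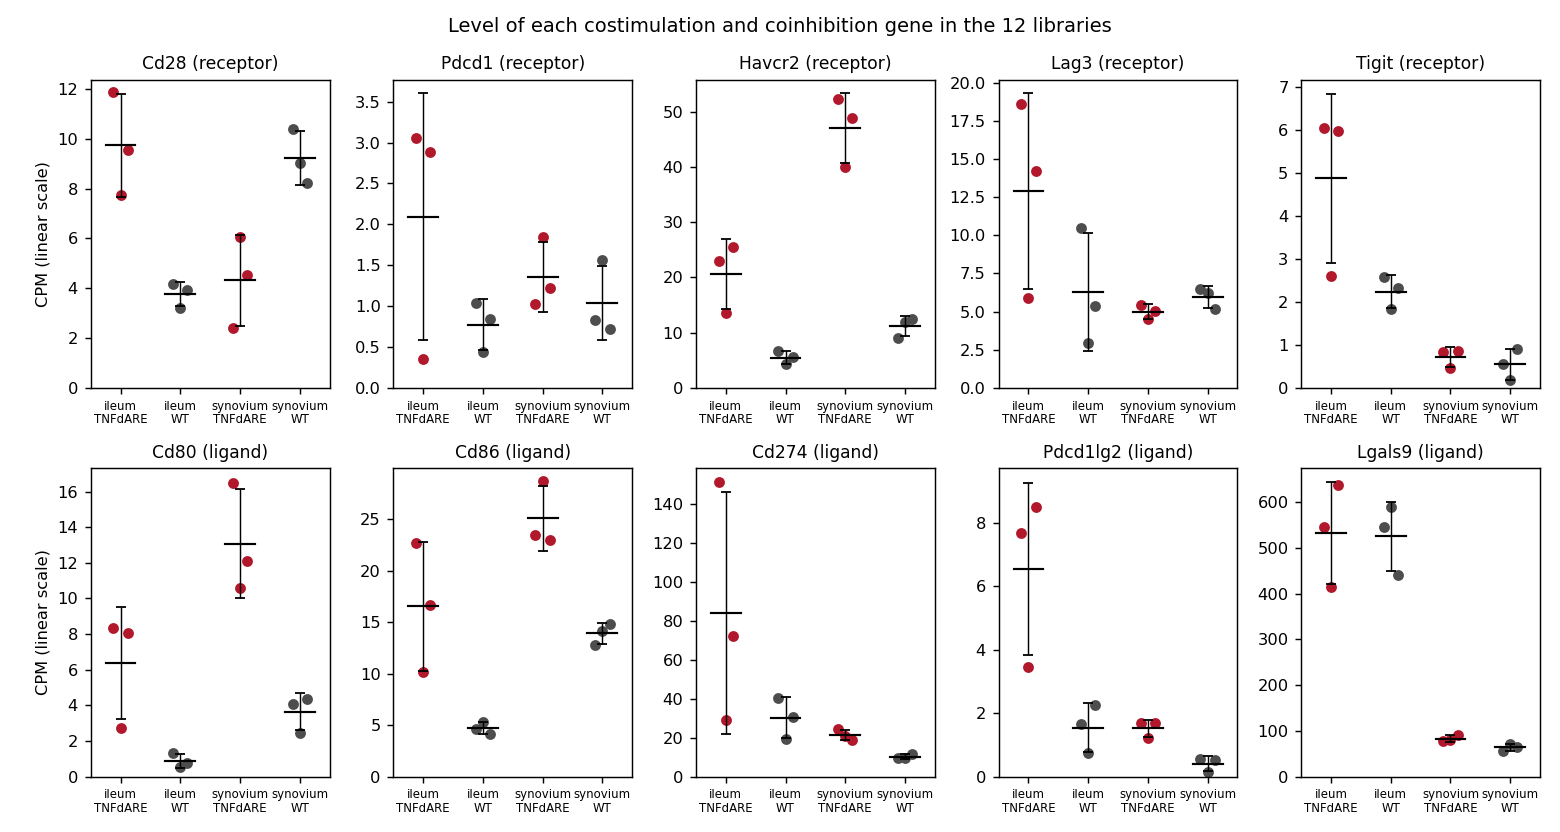
Level of each gene in CPM (y axis, linear, a scale of its own in each panel) in the 12 libraries, by tissue and genotype; points are libraries, lines the mean and bars the SD of 3 libraries. Cd28 stands higher in TNFdARE than in WT ileum and lower in TNFdARE than in WT synovium, while Havcr2, Cd80 and Cd86 stand higher in TNFdARE in both tissues.

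The first comparison set TNFdARE ileum against WT ileum. Cd28, both of its ligands and Havcr2 rose, by 2.58-fold for Cd28, 7.30-fold for Cd80, 3.53-fold for Cd86 and 3.78-fold for Havcr2. No member fell, and Lgals9, the most abundant, differed by less than its error. A gene was called at an adjusted p under 0.05 in edgeR's quasi-likelihood test with Benjamini-Hochberg adjustment over 15462 genes, and every adjusted p below comes from that test unless another tool is named. By this rule 4 members rose, 0 fell and 6 did not pass, beside 4.12% of all genes called higher and 1.57% called lower. All 10 fitted log2 fold changes were positive, with a median of 1.46, against -0.002 over all genes tested. The groups did not overlap in 6 members, beside 37.3% of all genes.

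Among the receptors, Cd28 had 11.9, 7.75 and 9.56 CPM in TNFdARE ileum (replicates 1, 2 and 3) and 4.16, 3.21 and 3.94 CPM in WT ileum. All TNFdARE libraries lay above all WT libraries, and the log2 fold change was 1.37 ± 0.21 (SE; adjusted p = 0.0404). Havcr2 had 22.9, 13.5 and 25.4 CPM in TNFdARE against 6.59, 4.24 and 5.56 CPM in WT ileum, again without overlap, a log2 fold change of 1.92 ± 0.28 (adjusted p = 0.0404). Tigit had 6.04, 2.61 and 5.98 CPM in TNFdARE against 2.57, 1.83 and 2.32 CPM in WT ileum. Its groups were separate only by the narrow gap between TNFdARE replicate 2 and WT replicate 1, and its change of 1.12 ± 0.36 did not pass (adjusted p = 0.0973). Pdcd1, at 3.05, 0.352 and 2.88 CPM in TNFdARE against 1.04, 0.438 and 0.845 CPM in WT ileum, overlapped between the groups because TNFdARE replicate 2, with 5 counts, was the lowest of all 6. Its log2 fold change was 1.43 ± 0.75 with a 95% interval of -0.38 to 3.24 (adjusted p = 0.247). Lag3 had 18.6, 5.92 and 14.2 CPM in TNFdARE against 10.5, 2.92 and 5.35 CPM in WT ileum. Same-numbered libraries were high or low together in Lag3, the groups overlapped, and the change of 1.05 ± 0.58 did not pass (adjusted p = 0.274). With replicate number as a block it did (1.09, adjusted p = 0.0368).

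Among the ligands, Cd80 had 8.32, 2.75 and 8.08 CPM in TNFdARE ileum and 1.32, 0.511 and 0.774 CPM in WT ileum. This was the largest fitted change of the 10 genes in this tissue, 2.87 ± 0.55 on the log2 scale (adjusted p = 0.0434), and its groups did not overlap. Cd86 had 22.7, 10.2 and 16.7 CPM in TNFdARE against 4.65, 5.33 and 4.15 CPM in WT ileum, also without overlap, a log2 fold change of 1.82 ± 0.30 (adjusted p = 0.0404). Pdcd1lg2 had 7.69, 3.45 and 8.51 CPM in TNFdARE against 1.66, 0.730 and 2.25 CPM in WT ileum. Its groups did not overlap, yet its change of 2.08 ± 0.49 stayed just outside the threshold (adjusted p = 0.0558). With replicate number as a block Pdcd1lg2 passed (2.10, adjusted p = 0.0166). Cd274 had 151, 28.8 and 72.1 CPM in TNFdARE against 40.4, 19.4 and 30.5 CPM in WT ileum. TNFdARE replicate 1 was more than 5 times replicate 2, which lay within the WT range, and the change of 1.49 ± 0.62 did not pass (adjusted p = 0.17). Lgals9 had 545, 415 and 638 CPM in TNFdARE against 545, 590 and 442 CPM in WT ileum. These ranges overlapped almost entirely, and the log2 fold change was 0.02 ± 0.18 with a 95% interval of -0.41 to 0.46 (adjusted p = 0.942).

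The summed level of 8 macrophage and dendritic cell markers was 533 to 1292 CPM in TNFdARE against 233 to 261 CPM in WT ileum; 7 of the 8 had positive log2 fold changes, 3 were called higher, and none of the 8 was at 0. The summed level of 9 T cell markers was 65.9 to 206 CPM in TNFdARE against 59.3 to 84.3 CPM in WT ileum, with 7 of 9 positive, 0 called and none at 0. Neutrophil markers summed to 77.4 to 446 CPM in TNFdARE against 5.28 to 8.53 CPM in WT ileum, with 4 of 5 tested called higher and a median log2 fold change of 6.86. B cell markers summed to 17.4 to 217 CPM in TNFdARE against 11.0 to 16.4 CPM in WT ileum, with 5 of 5 tested positive and 0 called. None of the 6 genes of either list was at 0 in all 3 libraries of an ileum group. Their part in the members' changes was not tested. All 4 calls ended with limma-voom (adjusted p = 0.0607 to 0.0854), with the deposited FPKM (0.0597 to 0.0836), and without TNFdARE replicate 3 or any WT replicate (0.15 to 0.176), and those of Cd80 and Havcr2 also ended without TNFdARE replicate 1 (0.0681 and 0.0509). Without TNFdARE replicate 2, 7 members were called, beside 4633 of 15813 genes, against 4 members and 879 of 15462 genes in the main fit.

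The second comparison set TNFdARE synovium against WT synovium. Here all 5 ligands and Havcr2 rose, and Cd28 fell. The increases were 4.30-fold for Havcr2, 3.83-fold for Pdcd1lg2, 3.64-fold for Cd80, 2.13-fold for Cd274, 1.84-fold for Cd86 and 1.32-fold for Lgals9, and Cd28 stood at 0.48 times its WT level. In counts, 6 members rose, 1 fell and 3 did not pass, beside 13.1% of 15599 genes called higher and 10.7% called lower. The median log2 fold change of the 10 was 0.65, against 0.003 over all genes tested. The groups did not overlap in 7 members, beside 43.9% of all genes.

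Havcr2 had 52.2, 40.0 and 48.8 CPM in TNFdARE synovium and 9.08, 11.9 and 12.5 CPM in WT synovium. Every TNFdARE library held more than 3 times the highest WT library, and the log2 fold change was 2.10 ± 0.16 (adjusted p = 0.000453). Cd28 had 2.40, 6.05 and 4.52 CPM in TNFdARE against 10.4, 9.05 and 8.23 CPM in WT synovium, so that all TNFdARE libraries lay below all WT libraries, at -1.06 ± 0.32 (adjusted p = 0.0482). The other receptors overlapped between the groups. Pdcd1 had 1.02, 1.84 and 1.22 CPM in TNFdARE against 0.832, 1.56 and 0.718 CPM in WT synovium (0.42 ± 0.41, 95% interval -0.54 to 1.38, adjusted p = 0.496). Lag3 had 5.46, 4.5 and 5.04 CPM in TNFdARE against 6.45, 6.25 and 5.16 CPM in WT synovium (-0.22 ± 0.17, 95% interval -0.63 to 0.18, adjusted p = 0.387). Tigit was near the limit of this depth, with 8 to 15 counts in TNFdARE against 3 to 14 in WT synovium (0.41 ± 0.56, 95% interval -0.90 to 1.71, adjusted p = 0.638). For these 3 genes the intervals reach from decreases to increases, and a difference was not detectable at this depth and number of replicates.

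Cd80 had 16.5, 10.6 and 12.1 CPM in TNFdARE synovium and 4.09, 2.47 and 4.37 CPM in WT synovium, a log2 fold change of 1.87 ± 0.26 (adjusted p = 0.00361). Cd86, its partner in binding Cd28, had 23.5, 28.7 and 23.0 CPM in TNFdARE against 12.8, 14.1 and 14.8 CPM in WT synovium (0.88 ± 0.12, adjusted p = 0.00366). Neither ligand overlapped between the groups. Cd274 had 24.4, 20.6 and 19.0 CPM in TNFdARE against 9.64, 9.31 and 11.7 CPM in WT synovium (1.09 ± 0.14, adjusted p = 0.00266). Pdcd1lg2 was low, with 21 to 29 counts in TNFdARE against 2 to 8 counts in WT synovium, and rose by 1.94 ± 0.48 on the log2 scale (adjusted p = 0.0262). Both PD-1 ligands were thus separated between the groups, while PD-1 itself was not. Lgals9 had 77.1, 79.4 and 91.8 CPM in TNFdARE against 55.3, 70.7 and 65.7 CPM in WT synovium, the smallest of the called increases (0.40 ± 0.12, adjusted p = 0.0419).

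The summed level of macrophage and dendritic cell markers was 1298 to 1479 CPM in TNFdARE against 619 to 674 CPM in WT synovium, with 7 of 8 positive and 4 called higher. The 9 T cell markers summed to 47.3 to 55.5 CPM in TNFdARE against 42.0 to 43.0 CPM in WT synovium, with 8 of the 9 log2 fold changes negative. Cd8a (-1.54, adjusted p = 0.0105) and Cd8b1 (-2.22, adjusted p = 0.0145) fell and Cd4 (0.86, adjusted p = 0.00384) rose. The sum of Cd3d, Cd3e and Cd3g was 2.94, 2.31 and 5.28 CPM in TNFdARE against 6.66, 5.15 and 6.01 CPM in WT synovium, so that only TNFdARE replicate 3 reached into the WT range. B cell markers summed to 72.5 to 153 CPM in TNFdARE against 159 to 324 CPM in WT synovium (0 of 6 called, all negative), and cytotoxic and NK cell markers to 7.5 to 14.6 CPM in TNFdARE against 18.2 to 21.0 CPM in WT synovium (3 of 5 tested called lower). None of these markers was at 0 in all 3 libraries of a synovium group, and their part in the fall of Cd28 was not tested. With the summed muscle level as a covariate the calls of Cd28 (-1.40, adjusted p = 0.335), Cd86 (0.87, 0.119), Pdcd1lg2 (2.01, 0.274) and Lgals9 (0.07, 0.888) ended, while Cd80, Cd274 and Havcr2 kept theirs. Calls over all genes fell from 3713 to 379 in that fit. The muscle level of TNFdARE (979 to 3930 CPM) did not overlap with that of WT (6349 to 11197 CPM). Genotype and muscle level therefore cannot be told apart in this fit. The call of Cd28 also ended with library size as the only scaling (0.0537), with FPKM at a pseudocount of 0.1 (0.0592) and without TNFdARE replicate 3 or WT replicate 1, 2 or 3 (0.124, 0.12, 0.0969 and 0.0981), that of Cd274 when all 12 libraries shared a fit (0.152), that of Pdcd1lg2 without TNFdARE replicate 1 or 3 or WT replicate 3 (0.0671, 0.0817 and 0.0598), and that of Lgals9 without every library in turn except WT replicate 2 (0.0554 to 0.128), with both FPKM fits, with library size only and with all 12 libraries.

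**Figure D2:**
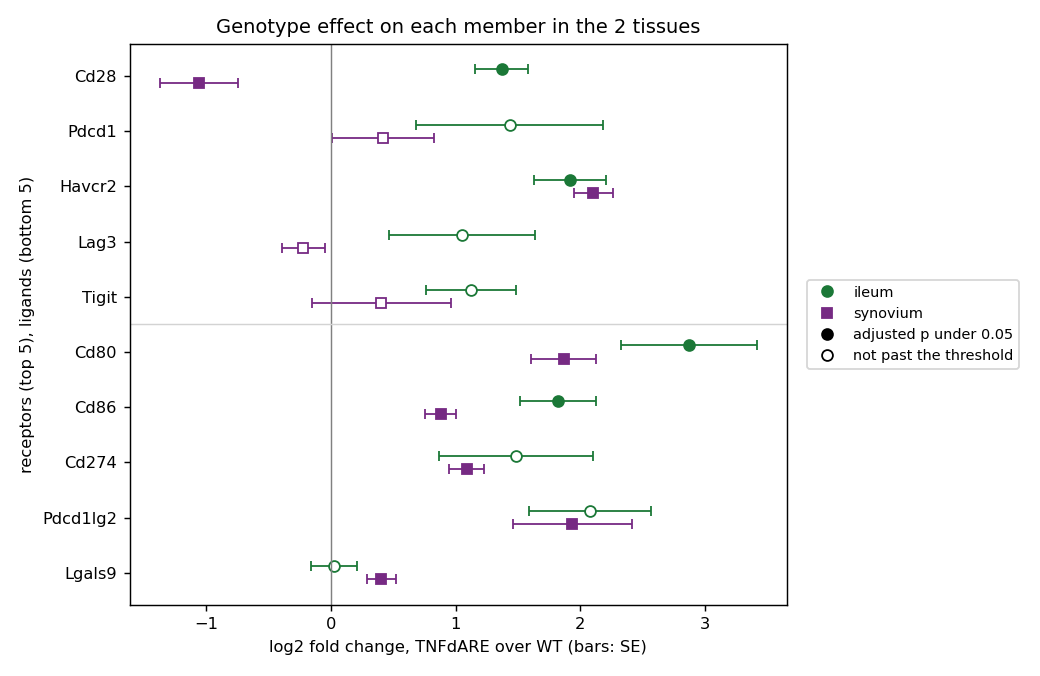
Log2 fold change of TNFdARE over WT (x axis; bars are the SE) for the 5 receptors and 5 ligands (y axis) in ileum (circles) and synovium (squares), filled where the adjusted p was under 0.05. Cd28 is the only gene called on opposite sides of 0, at 1.37 in ileum and -1.06 in synovium, and Havcr2 has nearly the same value in both, 1.92 and 2.10.

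Whether the genotype effect differed between the tissues was tested as an interaction over all 12 libraries. Cd28 was the 1 member called: its effect in synovium minus that in ileum was -2.46 ± 0.41 on the log2 scale (adjusted p = 0.00581), beside 12.1% of 16964 genes called in either direction. The call held in all 18 alternatives run, at -2.77 to -2.16. For Havcr2 the difference was 0.16 ± 0.34 with a 95% interval of -0.59 to 0.92, and for Pdcd1lg2 -0.17 ± 0.83 with an interval of -2.00 to 1.67. Cd80 (-1.03, interval -2.41 to 0.35) and Cd86 (-0.96, -1.71 to -0.22, adjusted p = 0.086) had smaller fitted effects in synovium without passing, and Cd86 passed without ileum TNFdARE replicate 2 (-1.12, adjusted p = 0.00665). Lag3, at -1.30 ± 0.64, did not pass (adjusted p = 0.205) but did with replicate number as a block (-1.33, adjusted p = 0.0138). The block called 2 members, beside 2620 of 16964 genes, against 1 member and 2050 genes without it. The differences of Pdcd1 (-1.04), Cd274 (-0.42), Tigit (-0.74) and Lgals9 (0.35) did not pass, with adjusted p from 0.341 to 0.736.

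The third comparison set synovium against ileum within each genotype. In TNFdARE mice Havcr2, Cd80 and Cd86 were higher in synovium (log2 1.19, 1.03 and 0.60), and Tigit, Lgals9, Pdcd1lg2, Cd274, Lag3 and Cd28 were lower (-2.74, -2.69, -2.10, -1.98, -1.37 and -1.17). Only Pdcd1 did not pass (-0.62 ± 0.61, adjusted p = 0.387). In WT mice Cd80, Cd86, Cd28 and Havcr2 were higher in synovium (2.05, 1.56, 1.29 and 1.03) and Lgals9, Tigit, Pdcd1lg2 and Cd274 lower (-3.04, -2.00, -1.93 and -1.56). Pdcd1 (0.42 ± 0.68) and Lag3 (-0.07 ± 0.46) did not pass there. Cd28 therefore stood on opposite sides in the genotypes, with 4.32 ± 1.83 CPM in synovium and 9.73 ± 2.07 CPM in ileum of TNFdARE mice, and 9.23 ± 1.10 CPM in synovium and 3.77 ± 0.50 CPM in ileum of WT mice (SD, n = 3). The 9 and 8 members called compare with 66.7% of all genes called between tissues in TNFdARE and 74.2% in WT, so most genes separate these tissues. In TNFdARE mice the calls of Cd80, Cd86 and Lag3 ended in some fits that left out a library (adjusted p up to 0.131, 0.126 and 0.0901). The call of Cd86 also ended with a replicate number common to both tissues as a block (0.61, adjusted p = 0.0547). The labels do not tie that number to the same animal in both tissues. Pdcd1 passed without ileum TNFdARE replicate 2 (-1.05, adjusted p = 0.0425). In WT mice the call of Cd274 ended with limma-voom (0.0896).

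Levels were compared between genes per kilobase of exon (CPM per kb, the mean ± SD of 3 libraries). Lgals9 led in every group, with 249 ± 52.3 in TNFdARE ileum, 246 ± 35.6 in WT ileum, 38.7 ± 3.68 in TNFdARE synovium and 29.9 ± 3.68 in WT synovium, and did not overlap with the next gene in any of them. In ileum the second was Cd274, at 23.2 ± 17.1 in TNFdARE and 8.31 ± 2.89 in WT. In synovium it was Havcr2, at 17.3 ± 2.32 in TNFdARE, separate from Cd86 (6.84 ± 0.865), and at 4.09 ± 0.663 in WT, where it overlapped with Cd86 (3.79 ± 0.267). In TNFdARE ileum every gene from Cd274 down overlapped with its neighbour in the order Cd274, Havcr2, Lag3, Tigit, Cd86, Pdcd1lg2, Cd80, Cd28, Pdcd1. In WT ileum the order below Cd274 was Lag3, Tigit, Havcr2, Cd86, Pdcd1lg2, Cd28, Pdcd1, Cd80, with gaps only below Cd274 and between Havcr2 and Cd86. Cd80 thus stood last in WT ileum at 0.234 ± 0.111 and at 1.72 ± 0.851 in TNFdARE ileum. In TNFdARE synovium Cd86 and Cd274 overlapped, Cd80 and Lag3 followed with gaps, and Tigit, Pdcd1lg2, Cd28 and Pdcd1 closed the order at 0.705 to 0.787 without separation. In WT synovium Lag3 and Cd274 overlapped below Cd86, Cd28 stood apart at 1.51 ± 0.179, and Cd80, Tigit and Pdcd1 overlapped above Pdcd1lg2 (0.205 ± 0.12).

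The receptors were next set against the summed level of Cd3d, Cd3e and Cd3g, and the ligands against the summed level of the macrophage genes Csf1r, Cd68 and Adgre1, as log2 ratios per library with a pseudocount of 0.5 counts. The Cd3 sum was 27.9, 13.0 and 32.7 CPM in TNFdARE against 25.3, 18.0 and 25.1 CPM in WT ileum, and the macrophage sum 891, 305 and 578 CPM in TNFdARE against 120, 96.4 and 111 CPM in WT ileum, against 1327, 1150 and 1261 CPM in TNFdARE against 523, 572 and 559 CPM in WT synovium. Two-sided exact permutation tests of 3 against 3 libraries cannot go below p = 0.1, which becomes 0.2 after adjustment over the 24 ratios computed, so none can pass 0.05 and separation is given as overlap. Such a ratio is a quotient of transcripts in the whole tissue and does not say which cells carried them.

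Havcr2 per Cd3 was higher in TNFdARE by 1.86 log2 units in ileum and by 2.90 in synovium, without overlap in either (exact p = 0.1 each). Havcr2 was not set against the macrophage genes, although macrophages and dendritic cells also carry TIM-3. In synovium Havcr2 was above the Cd3 sum in all 6 libraries, with log2 ratios of 3.19 to 4.11 in TNFdARE and 0.43 to 1.18 in WT. Cd28 per Cd3 was higher by 1.33 in TNFdARE ileum without overlap (exact p = 0.1), and differed by -0.35 in synovium with overlap (exact p = 0.5): the ratios there were -0.32, 1.35 and -0.24 in TNFdARE and 0.63, 0.79 and 0.44 in WT. TNFdARE replicates 1 and 3 lay below all WT ratios and replicate 2 above them. The Cd3 sum of synovium was 2.94, 2.31 and 5.28 CPM in TNFdARE against 6.66, 5.15 and 6.01 CPM in WT. It was thus below the WT range in TNFdARE replicates 1 and 2 and within it in replicate 3, while Cd28 was below the WT range in all 3. The part of the Cd3 sum in the fall of Cd28 was not tested. Tigit per Cd3 was higher in TNFdARE in both tissues without overlap (1.01 in ileum and 1.36 in synovium), in synovium on few counts. There the gap was narrow, between -2.58 in TNFdARE replicate 3 and -2.69 in WT replicate 3. Lag3 per Cd3 was higher by 1.06 in TNFdARE ileum without overlap and by 0.58 in TNFdARE synovium with overlap, and Pdcd1 per Cd3 overlapped in both (0.97 and 1.24). In synovium the levels of Tigit, Pdcd1 and Lag3 themselves had log2 fold changes of 0.41, 0.42 and -0.22, none of them called. With the lower Cd3 sum of TNFdARE replicates 1 and 2, a higher ratio to it is not a higher level. Between same-numbered libraries Pdcd1 per Cd3 was higher in TNFdARE in 3 of 3 pairs, by 1.38, 0.17 and 1.35 in ileum and by 1.43, 1.36 and 0.92 in synovium, as was Lag3 per Cd3 in 3 of 3 pairs of synovium (0.92, 0.66 and 0.15). An exact two-sided sign-flip test of 3 pairs cannot go below p = 0.25, which these reached among 19 of the 24 ratios that kept 1 sign in all 3 pairs.

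Relative to the macrophage genes the ligands behaved unequally. Cd80 differed by 0.46 in ileum with overlap and by 0.67 in synovium without. Cd86 was lower in TNFdARE by 0.57 log2 units in ileum without overlap and by 0.33 in synovium with overlap. Cd274 was lower by 1.07 in TNFdARE ileum without overlap, and differed by -0.11 in synovium with overlap. Pdcd1lg2 overlapped in both tissues (-0.22 in ileum and 0.85 in synovium). Lgals9 was lower in TNFdARE by 2.3 in ileum and by 0.80 in synovium, without overlap in either. Its own level was not called lower in either tissue, with log2 fold changes of 0.02 in ileum and 0.40 in synovium, there called higher. The macrophage sum was higher in TNFdARE in both tissues, so a lower ratio to it is not a lower level. Within the pairs of ligands, Cd86 per Cd80, each per kb, was lower in TNFdARE by 1.03 in ileum with overlap and by 1.00 in synovium without, and Cd274 per Pdcd1lg2 by 0.85 and 0.97 with overlap in both. Cd274 per Pdcd1lg2 was lower in TNFdARE in 3 of 3 same-numbered pairs of each tissue (exact sign-flip p = 0.25, the smallest possible).

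**Figure D3:**
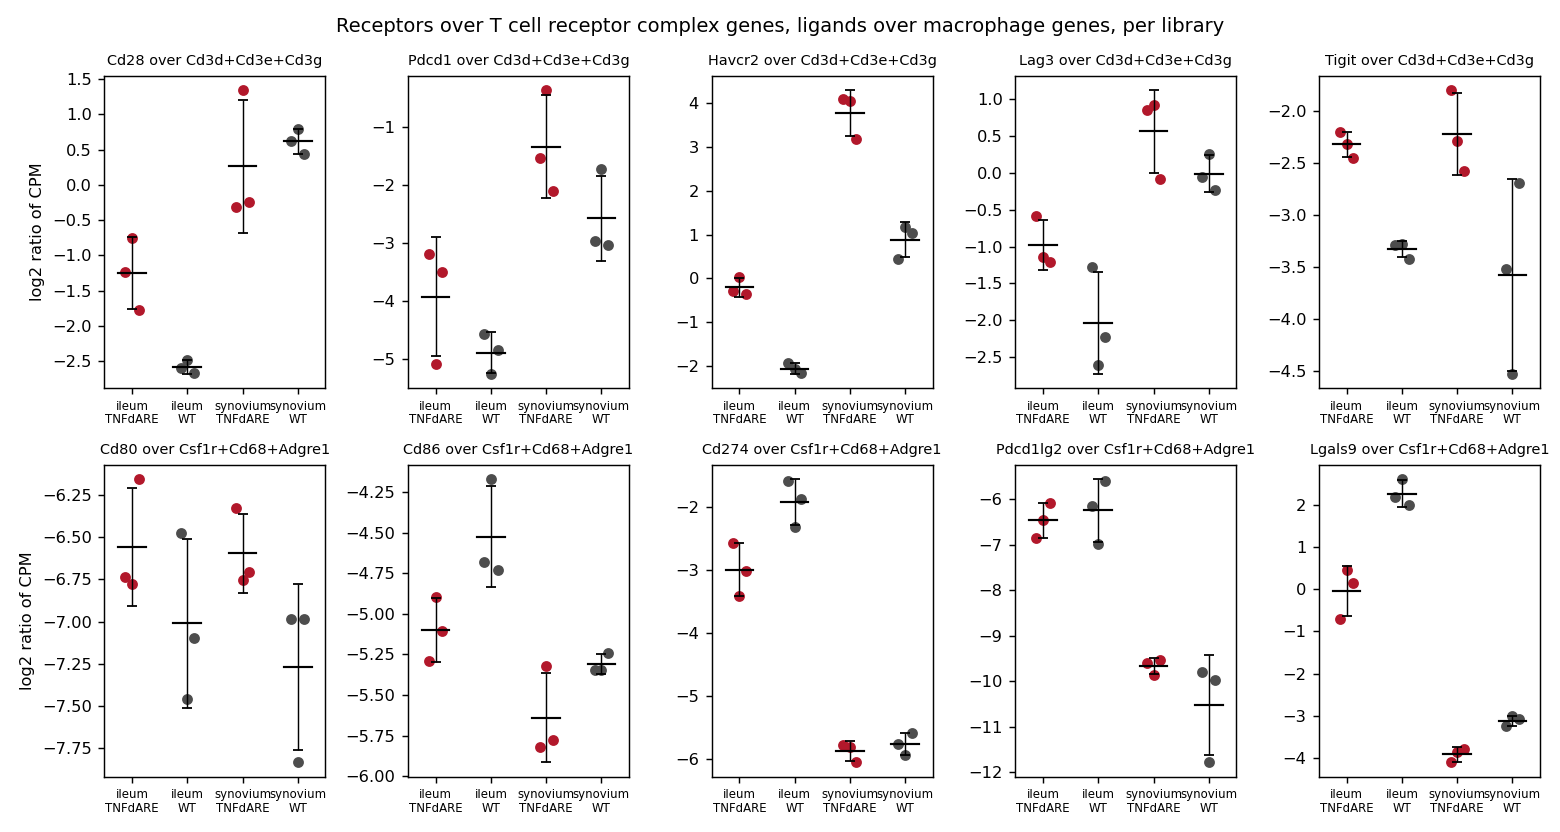
Log2 ratio of each receptor to the summed CPM of Cd3d, Cd3e and Cd3g (top) and of each ligand to that of Csf1r, Cd68 and Adgre1 (bottom) in the 12 libraries; points are libraries, lines the mean and bars the SD of 3. Without overlap, Havcr2 and Tigit are higher per Cd3 in TNFdARE in both tissues, and Cd28 and Lag3 in ileum alone. Lgals9 is lower per macrophage gene in TNFdARE in both tissues. The macrophage sum is itself higher in TNFdARE in both tissues. The Cd3 sum of synovium is lower in TNFdARE replicates 1 and 2 than in any WT library.

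Other genes of these pathways were taken from 3 lists: 18 further receptors, 18 further ligands and 20 genes of T cell receptor signalling. In ileum 9 of the 51 tested rose and 1 fell, with a median log2 fold change of 0.79, beside 4.12% of all genes called higher and 1.57% called lower. In synovium 16 of the 48 tested rose and 6 fell, with a median of 0.36, beside 13.1% of all genes called higher and 10.7% called lower; the share that fell is near that of all genes. With replicate number as a block 16 pathway genes were called in ileum in place of 10, while the calls over all genes went from 879 to 1128. Among the receptors Tnfrsf9, the costimulatory receptor 4-1BB, rose in both tissues (2.53 ± 0.38 in ileum, adjusted p = 0.0404, and 1.19 ± 0.32 in synovium, adjusted p = 0.0364). Lair1, an inhibitory receptor for collagen, also rose in both (1.86 in ileum, adjusted p = 0.0475, and 1.39 in synovium, adjusted p = 0.00077). Tnfrsf18, encoding GITR, rose in ileum (1.78, adjusted p = 0.0459). In synovium Cd200r1, the inhibitory receptor for Cd200, rose to 21.8 ± 3.48 CPM in TNFdARE against 4.54 ± 1.17 CPM in WT (2.29 ± 0.21, adjusted p = 0.000869), and Cd244a rose by 0.82 (adjusted p = 0.0107). Btla, the inhibitory receptor for Tnfrsf14, fell there, with 21.2 ± 2.97 CPM in TNFdARE against 36.4 ± 9.15 CPM in WT (-0.75 ± 0.20, adjusted p = 0.0347). Its call ended in 7 of 16 alternatives, with library size only (0.0561), all 12 libraries (0.198), the muscle covariate (0.18) and without TNFdARE replicate 1, 2 or 3 or WT replicate 3 (0.0546 to 0.0973), and the lower B cell markers of this tissue stand beside it, their part not tested. Ctla4, which competes with Cd28 for Cd80 and Cd86, had 6.75 ± 2.12 CPM in TNFdARE against 2.89 ± 0.97 CPM in WT ileum (1.22 ± 0.34, adjusted p = 0.0751, and 0.0393 with replicate number as a block), and 2.20 ± 0.65 CPM in TNFdARE against 1.16 ± 0.52 CPM in WT synovium (0.95 ± 0.42, adjusted p = 0.138).

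Of the ligands, Icosl, which binds Icos, rose in both tissues (1.04 in ileum, adjusted p = 0.0455, and 1.07 in synovium, adjusted p = 0.00286), as did Cd48, the ligand of Cd2 and Cd244a (1.90, adjusted p = 0.0459, and 1.14, adjusted p = 0.00166). Cd40, which activates antigen-presenting cells when bound by Cd40lg, rose in ileum (2.26 ± 0.47, adjusted p = 0.0479). Ceacam1, an abundant adhesion molecule of intestinal epithelium and a described TIM-3 partner, fell in ileum to 2161 ± 193 CPM in TNFdARE, against 3201 ± 142 CPM in WT (-0.56 ± 0.12, adjusted p = 0.0486). Its call ended with replicate number as a block (-0.57, adjusted p = 0.0738) and with library size only (0.0525), and its direction was reversed in the deposited FPKM (0.87, adjusted p = 0.258 and 0.264). The 5 epithelial markers summed to 8642 to 10803 CPM in TNFdARE against 11898 to 12863 CPM in WT ileum. None of their log2 fold changes was positive, 0 were called, and their part in the fall of Ceacam1 was not tested. In synovium Cd276 (0.87, adjusted p = 0.000746), Lgals3, described as a ligand of Lag3 (1.11, adjusted p = 0.000998), Tnfsf9, the ligand of 4-1BB (1.30, adjusted p = 0.00715), and Pvr, the ligand of Tigit (0.40, adjusted p = 0.0461), rose. Cd200 fell there (-0.61, adjusted p = 0.00129), opposite to its receptor. The 3 endothelial markers summed to 378 to 459 CPM in TNFdARE against 491 to 528 CPM in WT synovium. Of these 3, 0 were positive and 2 were called lower, and their part in the fall of Cd200 was not tested. The call of Pvr ended in 9 of 16 alternatives (adjusted p = 0.0529 to 0.14), among them RLE factors, both FPKM fits, the muscle covariate and every fit without a library except that without WT replicate 1. Nectin2, another Tigit ligand, had log2 fold changes of 0.09 in ileum and -0.03 in synovium (adjusted p = 0.556 and 0.874).

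Of the signalling genes, Nfatc2 (0.97, adjusted p = 0.0404), Pik3cd (1.75, adjusted p = 0.0487) and Lcp2 (2.06, adjusted p = 0.0498) rose in ileum. In synovium 6 rose and 4 fell. Inpp5d (0.88), Malt1 (0.95), Vav1 (0.88), Bcl10 (0.55), Ptpn6 (0.81) and Lcp2 (0.89) rose, with adjusted p from 0.00233 to 0.021. Ptpn6 and Inpp5d encode the phosphatases SHP-1 and SHIP-1, and these genes are known to be used by myeloid cells as well. Among those that fell were Prkcq (-1.21), Lck (-0.83) and Pik3r1 (-0.46), with adjusted p from 0.00707 to 0.0191. Lck is the kinase that starts T cell receptor signalling, and Prkcq carries the signal of the receptor and of Cd28 towards NF-kB. With the muscle level as a covariate, in a fit that cannot tell muscle level and genotype apart, 4 of the 22 pathway calls of synovium were left. They were those of Lair1, Cd200r1, Cd276 and Lgals3. Prkcq was then at -0.38 (adjusted p = 0.371), against -1.21 without the covariate, while Lck (-1.07, adjusted p = 0.185) and Pik3r1 (-0.40, adjusted p = 0.236) also lost their calls. In ileum each of the 10 pathway calls ended in 7 or more of 15 alternatives, as did those of the members. For the difference between tissues 3 pathway genes were called higher and 6 lower of 51 tested, beside 12.1% of all genes called in either direction. With replicate number as a block 17 pathway genes were called in all, beside 2620 of 16964 genes.

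**Figure D4:**
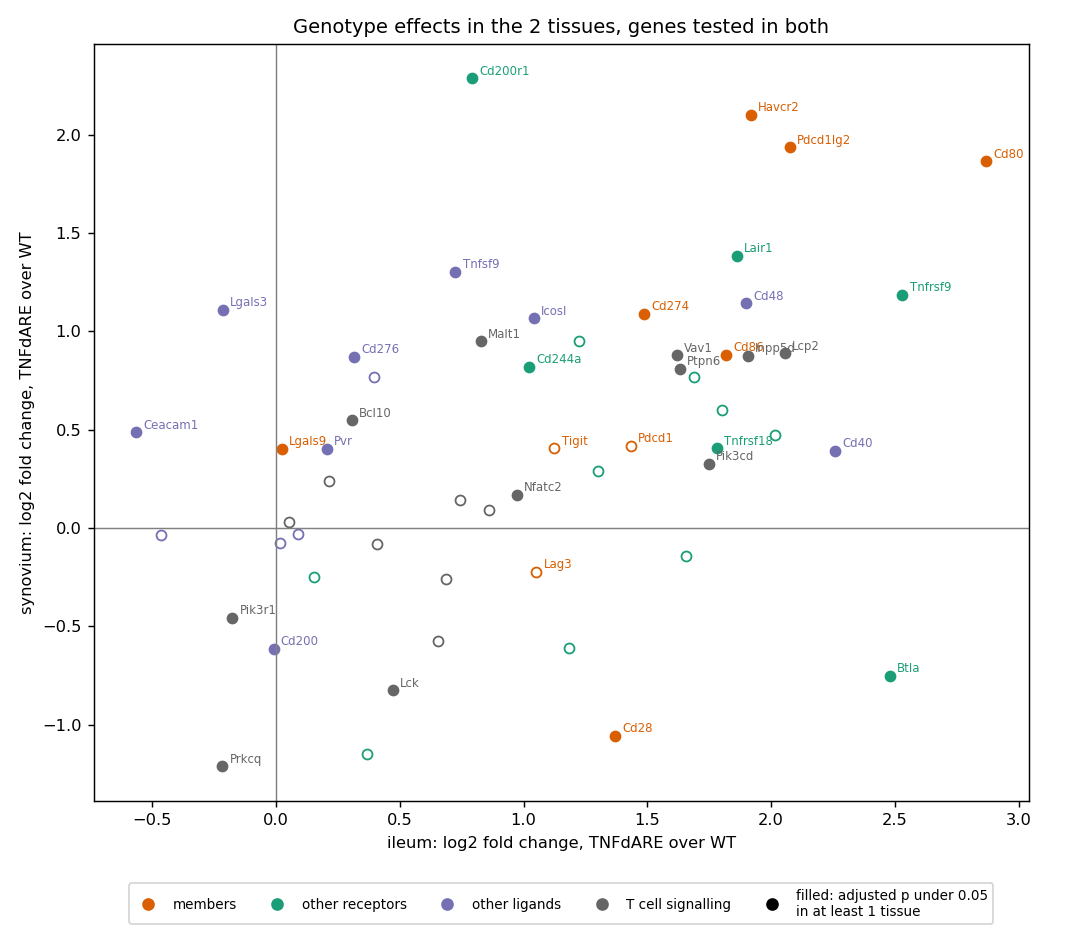
Log2 fold change of TNFdARE over WT in ileum (x axis) and synovium (y axis) for the 10 members and the 3 pathway lists, genes tested in both tissues, other than those not reported here, filled where the adjusted p was under 0.05 in at least 1 tissue. Cd28 and Btla lie to the right of 0 and below it, and Havcr2, Cd80 and Pdcd1lg2 lie far to the upper right.

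The pattern of each member over the 12 libraries was compared with that of other genes whose mean log2 CPM was not negative. The measure was Pearson's r of log2 CPM after the mean of each tissue was subtracted. The points share genotype, so genes that differ between the genotypes in both tissues have a high r with each other, and unnamed, immunoglobulin and T cell receptor segment genes were left out. Among the members themselves Cd80 and Pdcd1lg2 (0.97), Cd80 and Havcr2 (0.95) and Cd80 and Cd86 (0.92) were most alike, and Cd28 was least like Lgals9 (-0.29) and Havcr2 (0.01). The closest genes among those compared were Csmd1 (0.99) and C1qa (0.98) for Cd80, Apobr and Pqlc3 (0.99 each) for Cd86, Cxcl5 and Zmynd15 (0.99 each) for Havcr2, Gbp2 (0.99) and Hnrnph2 (0.98) for Cd274, and Lbp and Gem (0.97 each) for Pdcd1lg2. For Cd28 they were Gspt2 (0.97) and Rnf24 (0.95), for Lag3 Hlx and Enpp7 (0.95 each), for Pdcd1 Eif4e3 (0.95) and Klhl25 (0.94), for Tigit Capn7 (0.94) and Abcf2 (0.93), and for Lgals9 E2f3 (0.97) and Sephs2 (0.89).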

How the data were processed

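Poly-A RNA of 12 samples was made into stranded libraries and sequenced as single reads, per the labels. Reads were processed with cutadapt 1.15 and Bowtie2 2.3.3.1 on GRCm38, per the submitters' processing notes. How reads were counted, on which strand and with which annotation is not given in the sources used here. Raw counts are deposited by Ensembl identifier. A second deposited table holds FPKM of 17046 genes, adjusted further by the authors in a way not stated, and served as an alternative only. Symbols, positions and exon lengths came from GENCODE (GRCm38), which matched 98.7% of the identifiers.

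Each tissue was fitted on its 6 libraries in R 4.3.3 with edgeR 4.0.16 (filterByExpr, TMM, robust quasi-likelihood F test, two-sided, Benjamini-Hochberg adjustment over all genes tested, threshold 0.05). The interaction and the tissue contrasts came from a 4-group model of all 12 libraries. Intervals are 95% intervals of the fit. The procedure was run on simulated counts with planted changes, and only the sign and size of the fitted changes were required to be right. The simulated libraries held no replicate pairing and no muscle difference between genotypes, so the run does not bear on those. The alternatives were RLE factors, library size only, no filter, DESeq2 1.42.0, limma-voom (limma 3.58.1), a replicate block, all 12 libraries in 1 fit, a muscle covariate, limma on log2 FPKM with pseudocounts of 0.1 and 1, and leaving out each library; a block common to both tissues and the within-pair ratios were added after the data were seen.

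Replicate numbers of the labels were checked as a pairing over the 10801 genes that exceeded 3 in mean log2 CPM. Deviations from the group mean of same-numbered TNFdARE and WT libraries correlated at 0.233, 0.253 and 0.168 in ileum and 0.485, 0.321 and 0.168 in synovium, all over 0.1. Blocked values are therefore given where they changed a call of a value given in the report, and ratios are also given within pairs. Differently numbered libraries correlated at -0.275 to 0.155 in ileum and at -0.463 to 0.183 in synovium. In synovium TNFdARE replicate 3 was closer to WT replicate 2 (0.183) than to WT replicate 3 (0.168). In ileum TNFdARE replicate 3 had 0.155 with WT replicate 1. The pairing of replicate 3 is thus not clear from this check. Across tissues, same-numbered libraries 1, 2 and 3 correlated at -0.121, -0.009 and 0.147 in TNFdARE and at -0.005, 0.056 and 0.048 in WT. The block common to both tissues therefore rests on a pairing that this check does not show. Biological replicates are named as such in the labels, without saying what they are; p-values measure the spread between these samples.

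The 10 members were taken as listed, called pathway genes could be named, and the 2 most similar genes per member were named by rank. Members and lists were chosen with earlier results of these data known. Of the listed genes Pvrig was not analysed here, and single-gene results of some pathway genes are not reported here, although the list counts include them.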

Additional observations from a re-analysis of the deposited data

Results flagged for a closer look

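The genotype effect differed between the tissues in 8 genes described here, by the interaction test of edgeR over all 12 libraries; the values are the log2 effect in synovium minus that in ileum, and no explanation was tested. Cd28 had a difference of -2.46 (adjusted p = 0.00581), with log2 fold changes of -1.06 in synovium and 1.37 in ileum. Btla had the largest of these differences, -3.25 (adjusted p = 0.00969), with -0.75 in synovium and 2.48 in ileum. In ileum its change was not called, with 21.4 ± 14.4 CPM in TNFdARE (8.03 to 36.6) against 3.85 ± 0.257 CPM in WT. The 6 B cell markers all had negative interaction values, 4 of them called, and their part in the difference of Btla was not tested. For Cd40 the difference was -1.89 (adjusted p = 0.0341) and for Pik3cd -1.45 (adjusted p = 0.0481).

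In the other direction stood Cd200r1 at 1.47 (adjusted p = 0.0419), Lgals3 at 1.30 (adjusted p = 0.00665) and Ceacam1 at 1.02 (adjusted p = 0.0145). Lgals3 had 467 ± 69.2 CPM in TNFdARE against 221 ± 2.01 CPM in WT synovium, and 408 ± 67.3 CPM in TNFdARE against 475 ± 88.8 CPM in WT ileum. Cd200 had a difference of -0.63 (adjusted p = 0.0185), with -0.61 in synovium and -0.01 in ileum. The differences of Btla, Ceacam1 and Lgals3 kept their calls in 18 of 18 alternatives and that of Cd200 in 17. That of Cd200r1 lost its call in 11 of 18 (adjusted p up to 0.0834) and those of Cd40 and Pik3cd in 12 of 18 each (up to 0.107 and 0.109), mostly where a library was left out.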

How the results depend on the processing

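In ileum, 879 genes, 4 members and 10 pathway genes were called. Library size only gave 1379 genes, DESeq2 2715 genes and 24 pathway genes, and all 12 libraries in 1 fit 2722 genes and 24 pathway genes. No filter gave 902 genes and 6 pathway genes, and the replicate block 1128 genes and 16 pathway genes. Limma-voom and both FPKM fits gave 0 genes, 0 members and 0 pathway genes, although limma-voom found 4584 genes, 6 members and 28 pathway genes at an unadjusted p under 0.05 (edgeR 4716, 6 and 27) and FPKM 5016 and 4982 genes. Leaving out a library gave 0 to 4633 genes, 0 to 7 members and 0 to 36 pathway genes, highest without TNFdARE replicate 2, and without WT replicates 1, 2 and 3 edgeR gave 0 genes, against 3550, 3533 and 3332 at an unadjusted p under 0.05. Called genes were higher in TNFdARE in 72.5% in ileum, in 88.3% with library size only, where the median of all genes moved to 0.105, in 61.9% with DESeq2, and in 56.3% without TNFdARE replicate 2.

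In synovium the muscle covariate left 379 of 3713 genes, 3 of 7 members and 4 of 22 pathway genes, with 82.6% of calls higher against 54.9%. Muscle level and genotype cannot be told apart in that fit. Leaving out a library gave 2141 to 2927 genes, 4 to 6 members and 15 to 24 pathway genes.

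For the difference between tissues (2050 genes, 1 member, 9 pathway genes) DESeq2 gave 3193 genes and 15 pathway genes. Limma-voom gave 1561 genes and 5 pathway genes, and the block 2620 genes, 17 pathway genes and 2 members. Leaving out a library gave 1015 to 3506 genes, 1 to 2 members and 5 to 28 pathway genes. Library size only moved its median to -0.146 and its higher share to 31.2%, against 43.7%.

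Between tissues no count moved by over 1.5 times, and library size only moved the WT median to 0.17. Reversed directions were seen in values near 0 or not called, apart from Ceacam1 in ileum, whose FPKM values were 0.866 and 0.865. Lag3 was 0.005 and 0.004 in synovium with FPKM, and between tissues in WT 0.072 with library size only, 0.098 with limma-voom, 0.084 with the block and -0.432 to 0.502 over the fits that left out a library. Nectin2 in synovium was 0.038 and 0.033 with FPKM and -0.107 to 0.041 over such fits. These ranges were -0.125 to 0.184 for Lgals9 and -0.003 to 0.166 for Nectin2 in ileum, -0.733 to 0.395 for Cd274 and -0.583 to 0.245 for Pdcd1lg2 in the difference between tissues, -0.003 to 0.665 for Pdcd1 between tissues in WT, and -0.589 to 0.098 for Pdcd1lg2 per macrophage genes in ileum. Cd80 and Havcr2 in synovium, and Cd28 in the difference between tissues, kept their calls in every alternative run. The block ended no pathway call within a tissue other than that of Ceacam1 in ileum, and changed no member's call other than Lag3 and Pdcd1lg2 in ileum, Lag3 in the difference and Cd86 between tissues in TNFdARE. The cause of these changes was not tested. Pdcd1, Tigit and, in synovium, Pdcd1lg2 are limited by low counts.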
